A study of Mus musculus with 6 samples.

Results

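Lipogenesis, triglyceride storage and lipid droplet genes were followed in the livers of newborn mice without Cugbp1, whose current symbol is Celf1 and whose product binds RNA, and of wild-type mice. The set holds 35 genes chosen by name from knowledge of liver lipid metabolism, and all 35 were on the array, with 49 probes among the 55681 of the deposited table. The 9 fatty acid synthesis genes, 4 regulators, 7 esterification genes, 12 droplet and lipolysis genes and 3 uptake, binding and export genes were described apart. For a gene with several probes, the brightest by mean over the 6 arrays was used. Livers were taken at day 3 of life from 3 wild-type and 3 knockout mice, and total RNA was labelled with Cy3 and hybridised to Agilent whole-mouse-genome oligonucleotide arrays. The knockout is described in the labels by gene name alone, with no allele, strain background or feeding state, and nothing says whether animals shared a litter, so the p-values speak of the variation among these 6 livers alone, which may be partly technical.

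The liver makes fatty acids from citrate-derived acetyl units. Acly supplies acetyl-CoA, Acaca makes malonyl-CoA, Fasn builds palmitate, and elongases and desaturases reshape the chain. Glycerol-phosphate acylation, phosphatidate hydrolysis by lipins and a last acylation by DGAT enzymes turn fatty acids into triglyceride, which is stored in droplets coated by perilipins and CIDE proteins or exported on lipoproteins through Mttp. SREBP-1c and ChREBP drive the synthetic genes in the fed state, while PPAR-alpha, which is active in the suckling and fasted liver, drives several of the droplet genes.

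The targeted gene was low on the knockout arrays. The log2 signal of Celf1 was 12.05, 11.85 and 11.80 on wild-type 1, 2 and 3 and 9.04, 8.63 and 8.96 on knockout 1, 2 and 3, where signal means array intensity scaled to the 75th percentile. The difference was -3.03 ± 0.22 (SE), with limma's adjusted p = 0.0556. Several arrays stood apart. Skeletal muscle markers had a median of 4.29 on wild-type 3, 3.23 on knockout 2 and 6.57 on knockout 3 above the wild-type mean (log2), and exocrine pancreas markers 7.11 on knockout 2. Erythroid markers had a median of -2.29 on knockout 2. The growth text speaks of male knockout mice, but 4 of the 6 arrays carried Xist, at 10.07 and 10.83 on wild-type 2 and 3 and 10.13 and 10.21 on knockout 2 and 3. The Y-linked Ddx3y was under the detection level on those 4 arrays and at 10.67 and 10.69 on wild-type 1 and knockout 1, so sex and replicate number 1 cannot be told apart. Of the 10 hepatocyte markers all 10 were tested, 8 of them lower in knockout, and their summed level lay between 21.30 and 21.41 on the wild-type and 20.97 and 21.28 on the knockout arrays (log2). In whole tissue, fewer cells of a type and less RNA per cell cannot be told apart.

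No gene of the set passed the test between genotypes. With limma over 30929 features, 0 of 35 passed adjusted p 0.05, where 0.00323% of all features did, and 0 had an unadjusted p under 0.05, against 2.98% of all features. The genotypes overlapped on every one of the 35 genes, while they did not overlap on 6.74% of all features. The differences had a median of -0.08 on the log2 scale, with 20 genes lower and 15 higher in knockout, beside a median of -0.002 over all features, of which 50.4% were lower. On 33 genes the range over the 3 wild-type arrays was wider than the genotype difference, and on 28 that range exceeded 1 on the log2 scale. No share over all features was computed for these ranges, so they do not set these genes apart from others. Single arrays moved the counts by unadjusted p and by overlap. Without wild-type 1, 7 genes had an unadjusted p under 0.05, against 3.47% of all features, and 10 did not overlap, against 14.9%. Without wild-type 2 both counts were 0, against 3.73% and 15.3%, and without wild-type 3 they were 1 and 3, against 2.87% and 13.3%. Without knockout 1 they were 1 and 1, against 4.21% and 19.8%. Without knockout 2 they were 3 and 6, against 3.75% and 18.4%, and without knockout 3 they were 1 and 5, against 2.21% and 12.7%. Wild-type 1 and 2 were also set against knockout 1 alone, the arrays low in muscle markers, a comparison chosen after the data were seen. In pancreas markers knockout 1 had a median of 0.89 above the wild-type mean, against 0.14 and 0.09 on wild-type 1 and 2. It gave 4 genes with an unadjusted p under 0.05, against 5.23%, and 24 without overlap, against 72.9%. With 1 knockout array, which is assumed to vary like the wild-type ones, these counts say nothing of the genotype's own spread. With array weights 4 genes had such a p, against 10.7%, and with a variance trend 1, against 2.61%.

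The set varied more within a genotype than most features. Its median within-genotype SD was 0.78, against 0.39 over all features and 0.34 over the 21935 features that passed a stricter detection filter.

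**Figure D1:**
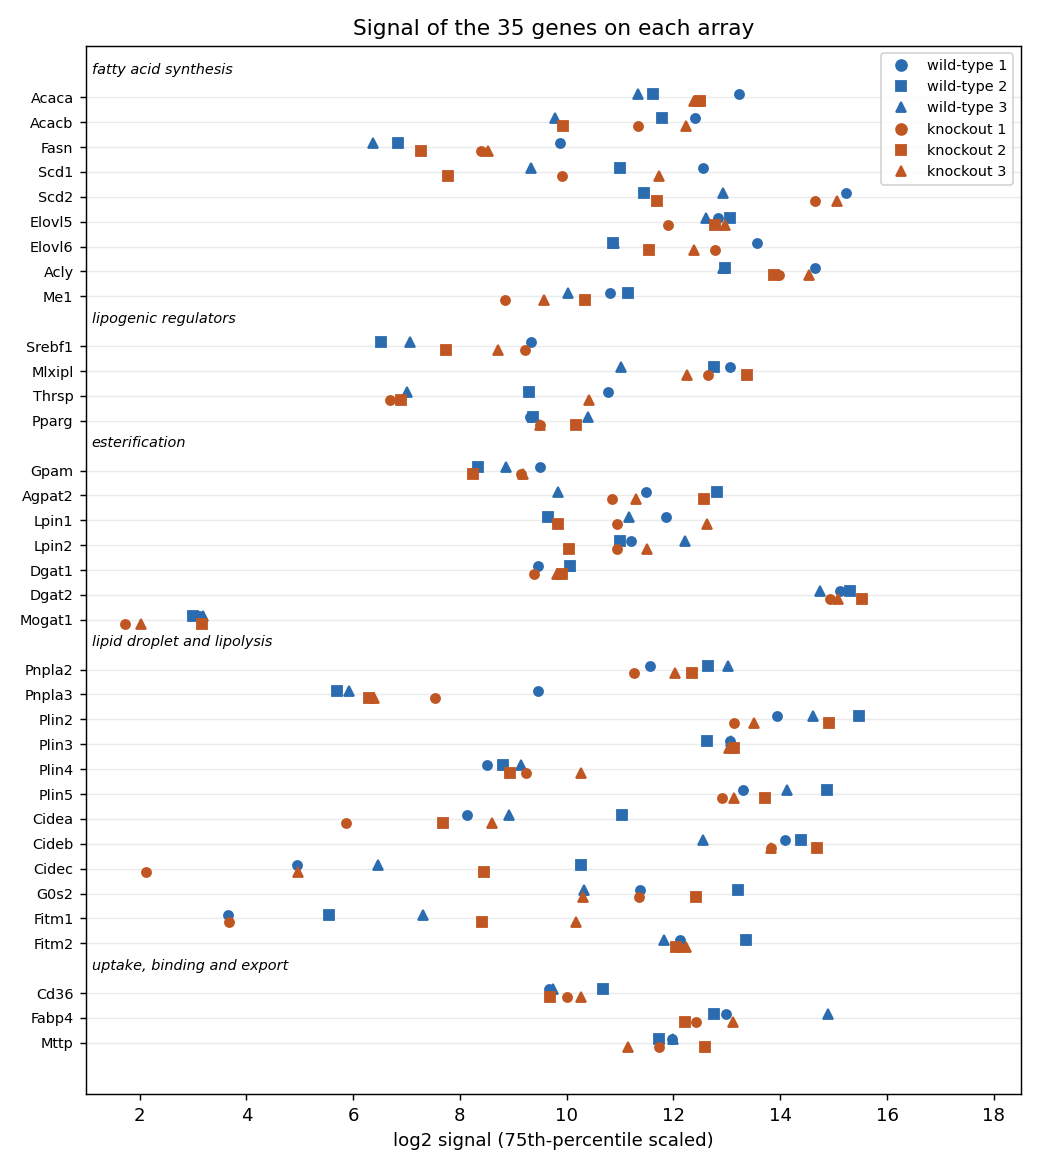
Log2 signal (horizontal axis) of the 35 genes (rows, by role) on the 3 wild-type arrays (blue) and 3 knockout arrays (orange), with the marker shape giving the replicate number. The genotypes overlap on each gene, and Cidec runs from 2.11 on knockout 1 to 10.26 on wild-type 2.

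Arrays with the same replicate number deviated together, and within those pairs 6 of the 12 droplet genes were lower in knockout throughout, beside genes of other roles. Of the 35 genes, 10 were lower in all 3 pairs, or 28.6%, against 10.8% of all features, and 2 were higher in all 3, against 12.7%. The 10 were Me1, Lpin2, Dgat1, Pnpla2, Plin2, Plin5, Cidea, Cidec, G0s2 and Fabp4. Of these, G0s2 was lower by only 0.03 and 0.02 in pairs 1 and 3. The 2 were Plin4 and Fitm1, the latter by 0.01 in pair 1. Across scalings, filters, floor and probe choices, 8 to 10 were lower, with 8 under no scaling, and 1 to 2 higher, with 1 under median scaling, no scaling, the stricter filter and a floor of 16. With the replicate number as a block in limma, 8 of 35 had an unadjusted p under 0.05, against 5.10% of all features. Of these, Me1, Lpin2, Plin2, Plin5, Cidea, Cidec and Fabp4 were lower and Fitm1 higher in knockout. Cidec was tested through its wild-type arrays, since knockout 1 was under the detection level. None of the 8 passed over all features, of which 0.00% did, and the lowest adjusted p was 0.655, for Cidec. Without the block the same 8 had unadjusted p from 0.0542 to 0.314, so what is said of them rests on the pairing, which the labels give only as numbers. The pattern was found in some lists outside the set and not in others. Of 10 hepatocyte markers, Ttr, Apoa2, Tat and Cps1 were also lower in all 3 pairs, and Tat and Cps1 had an unadjusted p under 0.05 with the block (limma, 0.00957 and 0.0282). Of the 17 other droplet and lipase genes tested, 2 were lower and 2 higher in all 3 pairs, and 11.8% lower is near the share over all features. Of 21 other lipogenic enzymes and regulators tested, 1 was lower and 1 higher in all 3 pairs. Of 18 other esterification genes 0 were lower and 1 higher, and of 17 other uptake, binding and secretion genes 0 and 3. The shares over all features were the same 10.8% and 12.7%. The pairs hold the arrays with muscle and pancreas transcripts, whose part in these differences was not tested. In pair 1 the medians of the muscle markers were -2.12 and -1.89 and of the pancreas markers 0.14 and 0.89 (log2, wild-type then knockout, relative to the wild-type mean). The 6 droplet genes of the 10 were taken for being lower in every pair, so their direction in pair 1 was fixed in advance. There G0s2 was lower by 0.03 and Cidea by 2.27. The size for Cidec is not known because its knockout value was under detection. All 12 droplet genes had a median difference of -0.28 in pair 1.

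**Figure D2:**
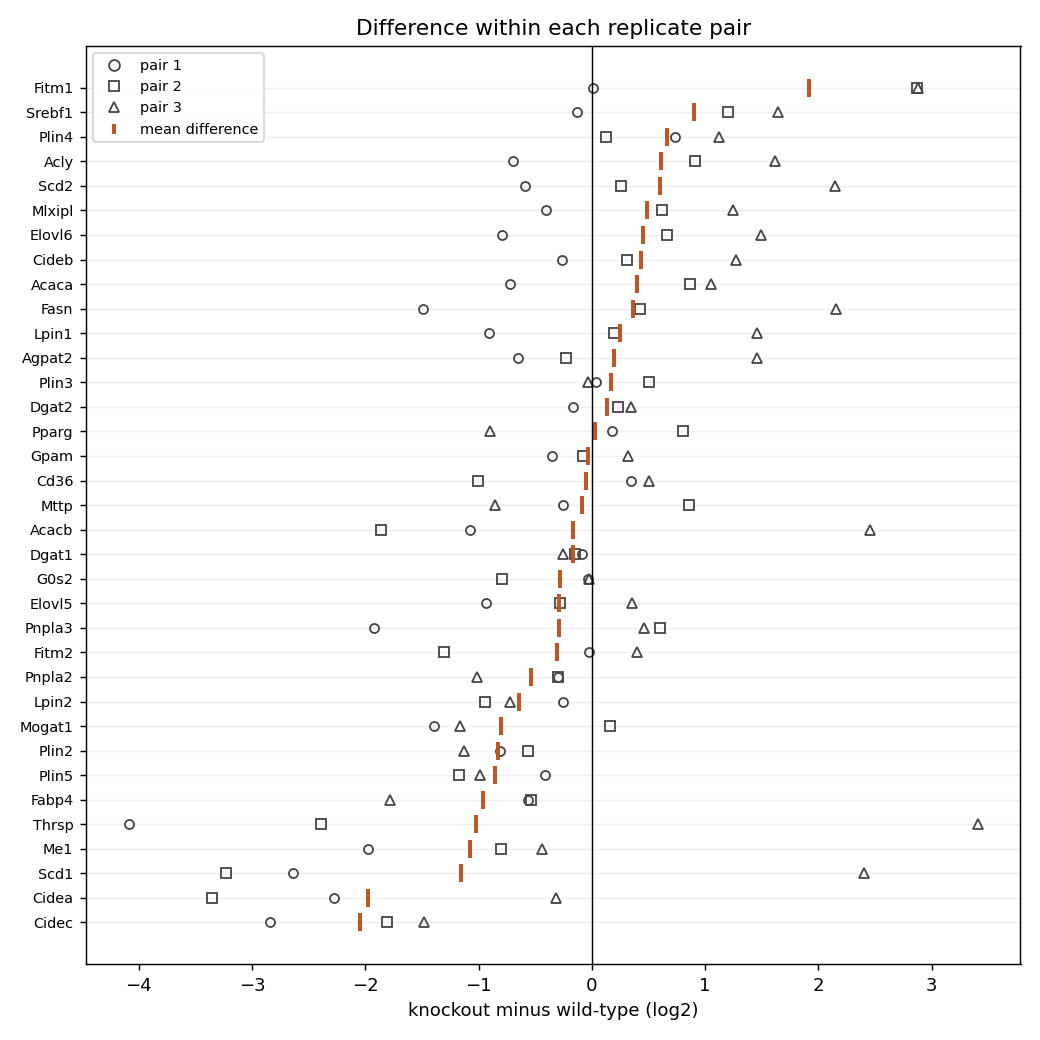
Knockout minus wild-type on the log2 scale (horizontal axis) within replicate pairs 1, 2 and 3 (open circle, square and triangle) for each of the 35 genes (rows, ordered by mean difference), with the mean difference as an orange bar. Cidec, Cidea, Plin2, Plin5, Fabp4 and Me1 lie left of 0 in all 3 pairs, while Thrsp and Scd1 span both sides.

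Among fatty acid synthesis genes the arrays of a genotype differed from each other by more than the genotypes did. Their median difference was 0.36 on the log2 scale, with 5 genes higher and 4 lower. It turned to -0.30 without wild-type 3, -0.06 without wild-type 2 and -0.03 without knockout 3, reached 0.98 when wild-type 1 was left out, lay at 0.18 when knockout 1 was, and came to -0.94, 0.26 and 1.62 within pairs 1, 2 and 3. Fasn, the fatty acid synthase, had a log2 signal of 9.88, 6.84 and 6.38 on wild-type 1, 2 and 3 and of 8.39, 7.27 and 8.53 on knockout 1, 2 and 3. Wild-type 1 was the highest array and wild-type 3 the lowest, with all knockout arrays between them. The difference was 0.36 ± 0.92 (SE), and its 95% interval by limma ran from -1.83 to 2.56. Elovl6, which elongates palmitate, was also highest on wild-type 1, with 13.56, 10.87 and 10.89 in wild-type and 12.77, 11.54 and 12.38 in knockout, and differed by 0.45 ± 0.77.

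Scd1 and Scd2, the stearoyl-CoA desaturases, were among the most variable members. Scd1 lay at 12.55, 11.00 and 9.33 in wild-type and 9.91, 7.77 and 11.73 in knockout, a difference of -1.15 ± 1.15 on the log2 scale. Scd2 lay at 15.24, 11.44 and 12.92 in wild-type and 14.65, 11.69 and 15.07 in knockout, a difference of 0.61 ± 1.20. Both genes were lowest in knockout on knockout 2, but in wild-type Scd1 was lowest on array 3 and Scd2 on array 2. Acly, the ATP-citrate lyase, differed by 0.61 ± 0.51 from a wild-type mean of 13.51 (SD 0.99, n = 3) to a knockout mean of 14.13 (SD 0.35, n = 3), and a second probe by 0.38. Acaca, the cytosolic acetyl-CoA carboxylase, differed by 0.40 ± 0.49, with 3 further probes at -0.14, 0.43 and 0.10. Its knockout arrays lay within 1.08-fold of each other, and its wild-type arrays within 3.70-fold. Acacb, the mitochondrial form that restrains fatty acid entry, differed by -0.16 ± 0.82, and the elongase Elovl5 by -0.29 ± 0.33.

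Me1, the malic enzyme that supplies NADPH, was the synthesis gene lower in all 3 pairs. Its log2 signal was 10.82, 11.14 and 10.02 in wild-type and 8.84, 10.34 and 9.58 in knockout. Knockout 2 lay above wild-type 3, so the genotypes overlapped. The difference was -1.07 ± 0.46 (SE), or 2.11-fold lower, with a 95% interval from -2.18 to 0.03 and limma's unadjusted p = 0.0542, or 0.0294 with the replicate block. Of 2 further probes, 1 was lower in all 3 pairs and differed by -1.31, and the other differed by -0.65 with knockout 3 above wild-type 3.

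The regulators did not move as a group. Srebf1, which encodes SREBP-1, lay at 9.34, 6.53 and 7.07 in wild-type and 9.21, 7.73 and 8.71 in knockout, a log2 difference of 0.90 ± 0.77 (SE) with a 95% interval from -0.93 to 2.73. On replicate 1 the genotypes were close, at -0.13, and on pairs 2 and 3 the knockout array was higher by 1.20 and 1.64. Mlxipl, which encodes ChREBP, differed by 0.49 ± 0.58, with -0.40, 0.62 and 1.25 within pairs 1, 2 and 3. Thrsp, a lipogenic gene induced by thyroid hormone and carbohydrate, lay at 10.78, 9.29 and 7.00 in wild-type and 6.69, 6.89 and 10.41 in knockout. It differed by -4.09 and -2.39 within pairs 1 and 2 and by 3.41 within pair 3, so its mean difference of -1.02 ± 1.27 describes no pair. Pparg, the nuclear receptor of fat storage, differed by 0.03 ± 0.37, with a 95% interval from -0.86 to 0.92.

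Esterification genes differed little by their median, but Lpin1 and Agpat2 ranged over 7.94-fold and 7.88-fold across the arrays. The median difference of the group was -0.04 on the log2 scale, with 3 higher and 4 lower. Dgat2 and Dgat1, which carry out the last acylation of triglyceride, differed by 0.14 ± 0.26 and -0.16 ± 0.27 (SE), with 95% intervals from -0.49 to 0.76 and from -0.82 to 0.49. The mean of Dgat2 was 15.05 in wild-type (SD 0.28, n = 3) and 15.19 in knockout (SD 0.30, n = 3). Gpam, the mitochondrial glycerol-3-phosphate acyltransferase, differed by -0.04 ± 0.40, and Agpat2, the next acyltransferase, by 0.19 ± 0.80. A second, dimmer Gpam probe differed by -0.38, with -0.78, 0.03 and -0.38 within pairs 1, 2 and 3.

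Lpin1 and Lpin2 encode phosphatidate phosphatases. Lpin1 lay at 11.86, 9.64 and 11.17 in wild-type and 10.94, 9.84 and 12.63 in knockout, lowest on replicate 2 in both genotypes. It differed by 0.25 ± 0.83 on the log2 scale. A dimmer probe was under the detection level on wild-type 3, so its fitted difference of 1.42 has no exact size. Lpin2 lay at 11.21, 10.99 and 12.22 in wild-type and 10.95, 10.05 and 11.50 in knockout, again lowest on replicate 2. Its difference of -0.64 ± 0.48 had limma's unadjusted p = 0.221, or 0.0444 with the replicate block. A second Lpin2 probe differed by -1.02, but in pair 1 its knockout array lay above the wild-type one. Mogat1, a monoacylglycerol acyltransferase gene, was near the detection level, at 3.11, 3.00 and 3.18 in wild-type and 1.72, 3.16 and 2.02 in knockout, and was detected on 1 knockout array.

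Droplet genes had a median log2 difference of -0.30, with 8 lower and 4 higher in knockout. It ran from -0.72 without wild-type 3 to -0.20 without wild-type 2, was -0.52 without knockout 2, and was -0.62 with array weights. The group had medians of -0.28, -0.43 and -0.03 within pairs 1, 2 and 3. Of the 12, 6 were lower in all 3 pairs and 2 higher. Plin2, the perilipin that coats most hepatocyte droplets, lay at 13.94, 15.47 and 14.62 on wild-type 1, 2 and 3 and at 13.13, 14.91 and 13.50 on knockout 1, 2 and 3. In both genotypes array 2 was highest and array 1 lowest, and each knockout array was below its wild-type partner. The difference was -0.83 ± 0.57 (SE), or 1.78-fold lower, with limma's unadjusted p = 0.191. With the replicate block the SE was 0.23 and the unadjusted p 0.0148 (adjusted p = 0.914). The difference ran from -1.36 without knockout 2 to -0.44 without wild-type 2, and was -0.48 without knockout 1.

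Plin5, a perilipin that ties droplets to mitochondria in oxidative tissues, followed Plin2. It lay at 13.31, 14.88 and 14.12 in wild-type and 12.90, 13.71 and 13.13 in knockout on the log2 scale, a difference of -0.86 ± 0.44 (SE), or 1.81-fold lower. Limma's unadjusted p was 0.0941, or 0.0186 with the replicate block. The difference was -0.47 without wild-type 2 and -1.25 without wild-type 1. Plin4, encoded like Plin5 on the minus strand of chromosome 17, differed in the other direction. It lay at 8.50, 8.80 and 9.15 in wild-type and 9.23, 8.93 and 10.27 in knockout, a difference of 0.66 ± 0.39, and was higher by 0.74, 0.12 and 1.12 within pairs 1, 2 and 3. Plin4 is known from adipose tissue and skeletal muscle, and knockout 3, its highest array, also had the highest muscle markers. The part of muscle RNA in it was not tested. Plin3, a perilipin found in most tissues, differed by 0.17 ± 0.22, with all 6 arrays within 1.42-fold.

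The CIDE genes, whose proteins fuse and enlarge droplets, differed in how far they ranged, and Cidec had the widest range of the set. Cidec had a log2 signal of 4.95, 10.26 and 6.46 on wild-type 1, 2 and 3 and of 2.11, 8.45 and 4.97 on knockout 1, 2 and 3, the value on knockout 1 being under the detection level of 3.00. Array 2 was highest and array 1 lowest in both genotypes, and 0.17% of all features had a larger SD within genotypes. Within pairs 1, 2 and 3 the fitted differences were -2.84, -1.81 and -1.49, the first without an exact size. The mean difference was -2.04 ± 1.88 (SE), with limma's unadjusted p = 0.314 and a 95% interval from -6.52 to 2.43. With the replicate block the SE was 0.33 and the unadjusted p 0.00151, the smallest of the set (adjusted p = 0.655). It was tested because all 3 wild-type arrays, the higher group, were detected, and these values are a description. With a floor of 16 the difference was -1.41, and over both probes -1.39. It was -0.51 without knockout 1, -0.53 without wild-type 2, -3.18 without wild-type 1 and -3.68 without knockout 2. A second, dimmer probe, detected on all 6 arrays, differed by -0.37, -1.46 and -0.34 within the pairs and by -0.72 in the mean.

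Cidea, known from brown fat and induced in fatty liver, lay at 8.13, 11.04 and 8.91 in wild-type and 5.86, 7.69 and 8.60 in knockout on the log2 scale. Wild-type 2 was far above the rest, and knockout 3 above wild-type 1, so the genotypes overlapped. The difference was -1.98 ± 0.93 (SE), or 3.94-fold lower, with limma's unadjusted p = 0.0733, or 0.0208 with the replicate block. It was -1.14 without wild-type 2, -1.22 without knockout 1 and -2.59 without wild-type 1. Cideb, the hepatocyte form, which also acts in lipoprotein lipidation, differed by 0.44 ± 0.52, with -0.26, 0.31 and 1.27 within the pairs, and a second probe by 0.41.

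Lipase genes and their regulators gave smaller differences. Pnpla2, the adipose triglyceride lipase, lay at 11.56, 12.65 and 13.03 in wild-type and 11.26, 12.35 and 12.02 in knockout, lower by 0.30, 0.30 and 1.01 within the pairs. Its log2 difference was -0.54 ± 0.46 (SE). G0s2, an inhibitor of that lipase, lay at 11.38, 13.20 and 10.33 in wild-type and 11.35, 12.42 and 10.31 in knockout. It differed by 0.03 or less in size in pairs 1 and 3 and by -0.79 in pair 2, which sets the mean of -0.28 ± 0.82. Pnpla3, a lipase family gene induced with lipogenesis, lay at 9.46, 5.69 and 5.93 in wild-type and 7.53, 6.29 and 6.39 in knockout. On this probe array 1 was highest in both genotypes, and the mean difference was -0.29. A second probe lay at 7.57, 6.12 and 3.95 in wild-type and 5.67, 4.81 and 6.55 in knockout. It was highest on wild-type 1 and knockout 3, so the probes gave different orders in knockout.

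The FIT proteins help droplets bud from the endoplasmic reticulum. Fitm1, known chiefly from skeletal muscle, had a log2 signal of 3.66, 5.54 and 7.30 in wild-type and 3.67, 8.41 and 10.18 in knockout. Its difference of 1.92 ± 1.71 (SE) came from pairs 2 and 3, at 2.87 and 2.88, while pair 1 differed by 0.01. Limma's unadjusted p was 0.301, or 0.0290 with the replicate block, and the difference was 0.54 without knockout 3 and 3.79 without knockout 1. The arrays with the highest Fitm1 were those with the highest muscle markers. All 12 muscle markers were tested and all 12 were higher in knockout by the mean. Their summed log2 level ran from 11.19 to 16.72 in wild-type and from 11.32 to 18.97 in knockout. Ckm, a defining marker, was at 1.91 on wild-type 1, under the detection level, and at 13.08 on knockout 3. Muscle markers were low in sum on wild-type 1, wild-type 2 and knockout 1, at 11.19, 11.34 and 11.32. Fitm1 was at 3.66, 5.54 and 3.67 there. The part of muscle RNA in the Fitm1 difference was not tested. Fitm2, the widely expressed form, differed by -0.31 ± 0.41, and on its brightest probe wild-type 2, at 13.35, stood out. A second, dimmer probe lay at 6.61, 7.90 and 7.92 in wild-type and 7.01, 7.03 and 6.90 in knockout. There wild-type 2 did not stand out from wild-type 3, and the difference was -0.50.

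**Figure D3:**
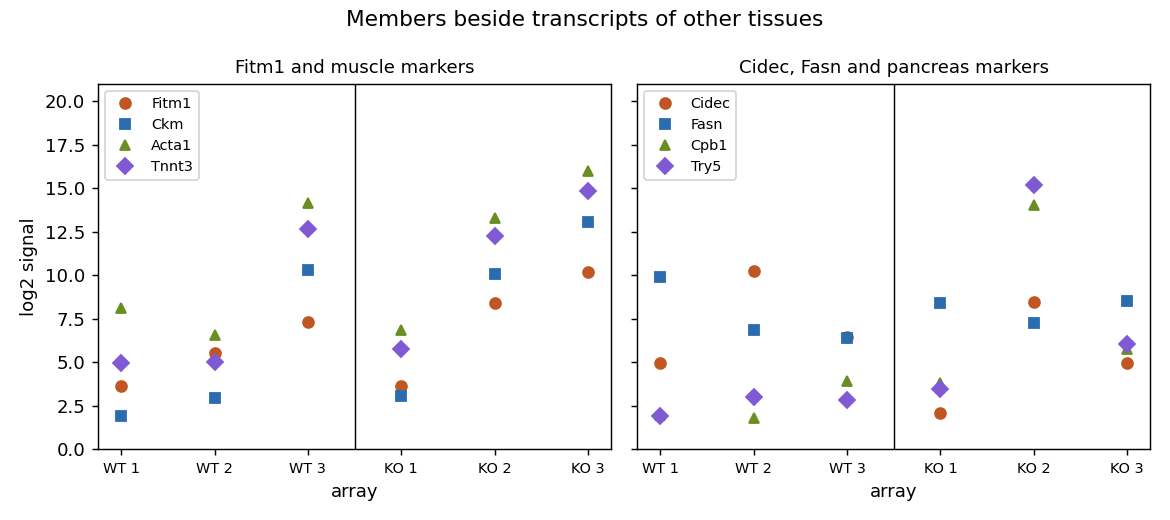
Log2 signal (vertical axis) on each of the 6 arrays (horizontal axis) of Fitm1 with the muscle markers Ckm, Acta1 and Tnnt3 (left) and of Cidec and Fasn with the pancreas markers Cpb1 and Try5 (right). Fitm1 is highest on wild-type 3, knockout 2 and knockout 3, as are the muscle markers. Cidec is highest on wild-type 2 (10.26), where Cpb1 and Try5 are low. Among knockout arrays Cidec is highest on knockout 2 (8.45), where Cpb1 and Try5 are high.

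Of the genes for uptake, binding and export, Fabp4, the fatty acid binding protein of adipocytes, macrophages and endothelium, was lower in all 3 pairs. It lay at 12.99, 12.76 and 14.90 in wild-type and 12.43, 12.22 and 13.12 in knockout. Wild-type 3 was the highest array, and without it the log2 difference of -0.96 ± 0.60 (SE) came to -0.28. Limma's unadjusted p was 0.153, or 0.0330 with the replicate block. Adipocyte markers did not run one way. Adipoq was detected on 0 of the wild-type arrays and was at most 3.61 in knockout, and Plin1 at most 3.50 on any array. Cfd was at 8.06 on wild-type 1 and between 2.71 and 4.17 on the other arrays. Car3, also a muscle and liver gene, lay at 10.75, 8.46 and 8.54 in wild-type and 11.56, 10.36 and 11.10 in knockout. Of the 10 adipocyte markers 7 were tested, 5 lower and 2 higher, and their summed log2 level, carried mostly by the liver-expressed Pck1, ran from 13.75 to 16.62 in wild-type and from 12.79 to 15.88 in knockout. All 10 endothelial markers were tested, 6 lower and 4 higher, with a summed log2 level of 14.49 to 15.29 in wild-type, highest on wild-type 3, and of 14.78 to 14.82 in knockout. All 10 macrophage markers were tested, 7 lower and 3 higher, with a summed log2 level of 16.07 to 16.75 in wild-type, highest on wild-type 3, and of 15.74 to 16.85 in knockout. The part of these cell types in the Fabp4 difference was not tested. Cd36, a fatty acid transporter, differed by -0.05 ± 0.34, and Mttp, which loads triglyceride onto apolipoprotein B, by -0.08 ± 0.38, with 95% intervals from -0.86 to 0.76 and from -0.99 to 0.82.

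Synthesis and droplet genes were ordered differently across the arrays. Of 9 synthesis genes, 7 had their highest wild-type value on wild-type 1, as did 31.6% of all features, and 7 their lowest on wild-type 3, against 39.6%. Of 12 droplet genes, 7 were highest on wild-type 2, against 32.1%, and 7 lowest on wild-type 1, against 30.0%. In knockout, 6 of the 9 synthesis genes were highest on knockout 3, against 20.7%, and 6 lowest on knockout 2, against 37.4%. There, 7 of the 12 droplet genes were highest on knockout 2, against 36.9%, and 7 lowest on knockout 1, against 30.5%. Array 2 of either genotype was thus the array on which most droplet genes peaked. Over the set, 16 genes peaked on the same replicate number in both genotypes, 8 of them on number 2, against 45.6% and 17.0% of all features. These genes share arrays and are not independent of each other, so the counts are a description of 6 livers.

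**Figure D4:**
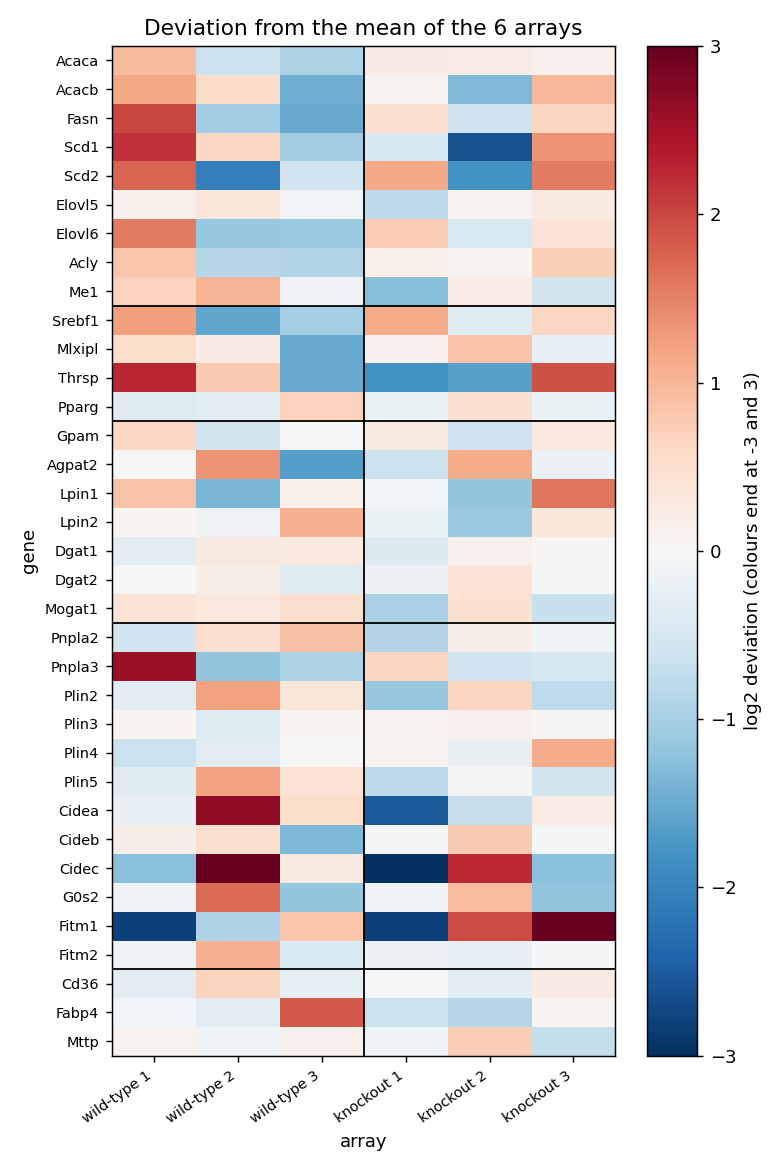
Log2 deviation of each gene (rows, by role, separated by lines) from its own mean over the 6 arrays (columns, wild-type left and knockout right), with colours ending at -3 and 3. Most synthesis genes are high on wild-type 1, and Plin2, Cidec and G0s2 are high on array 2 of both genotypes.

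To show sequence beside these orders, the stretch from 150 bases before to 10 bases after the annotated start is given for Fasn, which peaked on wild-type 1, and for Plin2 and Plin5, which were lower in all 3 pairs. They are RefSeq sequences of GRCm38.p6, each on the minus strand, written 5′ to 3′, at chr11:120824538-120824697 for Fasn, chr4:86670050-86670209 for Plin2 and chr17:56117539-56117698 for Plin5 (the first of 2 starts listed). Capitals mark CCAAT on either strand and, in Plin2, the E-box CACGTG.
Fasn: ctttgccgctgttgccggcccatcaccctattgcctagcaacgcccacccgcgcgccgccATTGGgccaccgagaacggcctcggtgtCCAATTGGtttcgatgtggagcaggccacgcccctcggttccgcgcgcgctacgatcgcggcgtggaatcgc
Plin2: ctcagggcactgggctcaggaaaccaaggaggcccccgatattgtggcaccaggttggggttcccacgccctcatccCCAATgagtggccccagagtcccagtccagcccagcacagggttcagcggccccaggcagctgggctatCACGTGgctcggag
Plin5: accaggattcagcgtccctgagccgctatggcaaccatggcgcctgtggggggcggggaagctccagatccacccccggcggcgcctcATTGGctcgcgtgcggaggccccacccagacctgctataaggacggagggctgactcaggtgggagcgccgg
In Fasn a CCAAT on each strand overlaps, giving the longer run of capitals. Of the 35 genes, 29 had promoter entries, with 40 starts. Over the window from 250 bases before to 50 after the start, CCAAT on either strand occurred in 20 of the 40 and in 37.4% of all 32851 entries. CACGTG, the core bound by ChREBP and other basic helix-loop-helix factors, occurred in 4 of the 40 (Elovl5, Lpin2, Mlxipl and Plin2) and in 7.15% of all. TCACNCCAC, a sterol regulatory element, occurred in 1 (Mlxipl) and in 1.24% of all, and a direct repeat of AGGNCA with a single base between, known as DR1, in 0 and in 0.381%. These letter matches are descriptions of the windows and were not set against the signal.

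Other genes of the pathway, taken as 4 whole lists, gave 0 calls by limma's adjusted p in any list and 1, 0, 1 and 0 genes with an unadjusted p under 0.05, against 2.98% of all features. The counts without overlap were 2, 0, 3 and 1, against 6.74%. Among 21 tested lipogenic enzymes and regulators outside the set, the median log2 difference was -0.01, with 9 higher and 12 lower. Insig2, which holds SREBP in the endoplasmic reticulum, lay at 11.74, 12.32 and 11.79 in wild-type and 10.14, 11.27 and 10.78 in knockout, with no overlap. It differed by -1.22 ± 0.35 (SE; limma's unadjusted p = 0.0102, adjusted p = 1). Slc25a1, the citrate carrier, did not overlap either, at 0.54 ± 0.25, while Idh1 (1.06 ± 0.70) and Nr1h3, which encodes the liver X receptor alpha (-0.26 ± 0.39), did. Among 18 esterification genes the median was 0.04, with 10 higher and 8 lower. The acyltransferases Soat2, Mogat2, Gpat2 and Agpat5 differed by 0.55 ± 0.44, 0.34 ± 0.28, -0.99 ± 0.47 and -0.40 ± 0.34.

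Among 17 tested droplet and lipase genes the median log2 difference was -0.11, with 8 higher and 9 lower. Of the 17, 3 did not overlap, against 6.74% of all features. Ces3b, a carboxylesterase of the liver endoplasmic reticulum, lay at 10.26, 9.48 and 9.88 in wild-type and 7.64, 9.16 and 8.55 in knockout, a difference of -1.42 ± 0.42 (SE; limma's unadjusted p = 0.013, adjusted p = 1). Hepatic lipase, Lipc, differed by -0.68 ± 0.34 and lipoprotein lipase, Lpl, by 0.41 ± 0.23, both without overlap. Mgll, the monoglyceride lipase, differed by 0.42 ± 0.40. Among 17 uptake, binding and secretion genes the median was 0.14, with 12 higher and 5 lower. P4hb, a subunit of the microsomal transfer protein complex, differed by 0.60 ± 0.37 without overlap. Fabp2 (1.74 ± 1.30), Sar1b (-0.32 ± 0.40) and Tm6sf2 (-0.33 ± 0.53) overlapped.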

How the data were processed

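The authors deposited a table of linear intensity, one value for each probe and array, read with Agilent Feature Extraction per the submitters' processing notes. No source used here gives the scanner column, background correction or flags. A second deposited table holds log2 values. Quantile normalization, log2 and removal of the median per probe gave its values within 0.01 for at least 99.96% of probes on each array, which settles scale, centring and direction. Its column medians lay between -0.011 and 0.005.

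Each array was scaled to its 75th percentile (350.2 to 534.8 before scaling), floored at 1 and put on the log2 scale. A probe was tested if it lay above the 30th percentile of its array on all 3 arrays of either genotype. After the brightest probe was taken per gene, 30929 features remained, 21627 of them named. All 35 genes passed, 33 of them detected on all 6 arrays. Mogat1 and Cidec passed through the wild-type arrays alone. Older symbols were updated through RefSeq's gene table (GRCm38.p6). All 49 probes of the set carried current symbols, and none had an empty cell. The number of arrays limits the precision.

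Genotypes were compared with limma 3.58.1 under R 4.3.3, two-sided and with no covariate, and p-values were adjusted by Benjamini-Hochberg over every feature, with a threshold of 0.05. The procedure was tested on simulated data with independent normal noise and known changes. The simulation held no pairs and no sex or tissue differences between arrays, so it says nothing of the replicate block. Intervals are moderated, at 95%. An exact permutation test of 3 against 3 arrays cannot go below p = 0.1. Once group means were removed, arrays sharing a replicate number correlated at 0.36, 0.26 and 0.30, each over 0.1, so same-numbered arrays were treated as pairs. This rests on the data, not on the labels, and the same data gave the results by pair. Wild-type 1 and knockout 1 alone had Ddx3y above the detection level, so replicate number and sex cannot be told apart there. The set, the lists and the tests were chosen with earlier results of these data known. Named are Celf1, the 35 genes and, from every further pathway list, the 2 of smallest unadjusted p in each direction, beside markers of other tissues where a result touches them. Alternatives were other scalings, the deposited log2 values, detection filters, a floor of 16, all probes of a gene, the replicate block, array weights, a variance trend and leaving out each array.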

Additional observations from a re-analysis of the deposited data

How the results depend on the processing

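No gene of the set passed limma's adjusted p of 0.05 under any alternative run, where the lowest adjusted p was 0.345, or 0.95 when leaving out 1 array. The number of all features that passed, 1 as reported, was 2 with median scaling, a stricter detection filter or a variance trend. It was 11 with array weights, and 0 with no filter, a floor of 16, the mean over probes or the replicate block. Without 1 array it ran from 0 to 1. Genes of the set with an unadjusted p under 0.05, 0 as reported, numbered 8 with the replicate block, against 5.10% of all features. They numbered 4 with array weights, against 10.7%, and 1 with the trend, against 2.61%. With the stricter filter they numbered 1, and no share over all features was computed there. Without 1 array they numbered 0 to 7, against 2.21% to 4.21%, and those without overlap 0 to 10, against 12.7% to 19.8%. Wild-type 1 and 2 against knockout 1 gave medians of -0.884 for droplet and -0.263 for esterification genes. It left 24 genes without overlap, against 72.9% of all features, and fewer arrays overlap less by construction. The block changed no call by adjusted p within the set.

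The synthesis median was -0.937 within pair 1 and 1.617 within pair 3, and ran from -0.297 to 0.982 without 1 array. The droplet median ran from -0.722 to -0.197. The esterification median was -0.349 and 0.319 there, -0.165 with the mean over probes, and -0.32 to 0.163 without 1 array. Of 382 single-gene values under other settings, 370 kept their direction. With array weights the differences turned to 0.136 (Acacb), -0.258 (Mlxipl), 0.046 (Thrsp), 0.143 (Gpam), -0.423 (Agpat2), 0.053 (Lpin2), -0.016 (Dgat2), -0.092 (Cideb) and 0.113 (Cd36). With no scaling they turned to 0.079 (Gpam), 0.064 (Cd36) and 0.032 (Mttp). The cause was not tested. Leaving out 1 array turned the sign of 16 genes in 28 of 210 values. The ranges were -0.937 to 0.456 for Acacb, -0.297 to 1.453 for Fasn, -0.275 to 1.661 for Scd2, -0.496 to 0.038 for Elovl5, -0.14 to 0.878 for Mlxipl, -0.194 to 0.381 for Pparg, -0.32 to 0.269 for Gpam and -0.581 to 0.908 for Agpat2. They were -0.497 to 0.898 for Lpin1, -0.035 to 0.259 for Dgat2, -0.955 to 0.928 for Pnpla3, -0.122 to 0.789 for Cideb, -0.932 to 0.503 for G0s2, -0.611 to 0.15 for Fitm2, -0.232 to 0.273 for Cd36 and -0.466 to 0.254 for Mttp. Signal near background limits Mogat1 and Cidec.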
